A study of Mus musculus with 3 samples.

Results

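Claudins and tricellulin, the proteins that make up the strands of tight junctions, were followed through the cell types of the mouse cochlea at 2 ages. The members were the 10 genes whose symbols were Cldn3, Cldn4, Cldn6, Cldn7, Cldn8, Cldn9, Cldn10, Cldn11, Cldn14 and Marveld2, of 32285 genes listed, and each symbol matched 1 gene. They were chosen by name and not by their level, although earlier results of these data were known at the time. The study freed the cochlear tissue of C57BL/6J mice (C57/B6 in the labels) from its bony wall, dissociated it and profiled the cells with droplet-based single-cell RNA sequencing (10x Genomics, 3′ ends), in which each captured RNA molecule is counted once through its unique molecular identifier (UMI). The groups were postnatal day 14 (P14, about the onset of hearing, 1 library) and postnatal day 28 (P28, the mature cochlea, 2 libraries, replicates 1 and 2). No treatment is named for any group, all mice were of the same strain, and each library pooled 14 cochleae of 7 mice, taken mostly from the upper basal to the apical turns, so that single animals cannot be told apart. With 1 library at P14, age and library cannot be told apart and no test was made between the ages.

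Tight junctions seal the space between neighbouring epithelial cells, and the claudins in their strands decide which ions and how much water pass. In the cochlea they separate the potassium-rich endolymph from the sodium-rich perilymph, along the reticular lamina of hair cells and supporting cells, the sulcus epithelium, Reissner's membrane and the marginal cells of the stria vascularis. Tricellulin, encoded by Marveld2, closes the points where 3 cells meet. In the mouse, loss of Cldn14, Cldn9, Cldn11 or Marveld2 causes hearing loss, and CLDN14 and MARVELD2 are human deafness genes.

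The 3 libraries held 2513 to 18196 barcodes and 10125255 to 37530956 UMIs, of which 1662, 5649 and 7065 barcodes passed the limits of 200 to 6000 genes and at most 15% mitochondrial UMIs, with a median of 2036 to 2475.5 UMIs per cell. The kept cells of any pair of libraries shared 4 to 10 barcodes. Cells were clustered without the members among the variable genes, and clusters were named from marker genes that contain no member. The classes used most were outer hair cells (OHC-like; 277, 357 and 282 cells at P14, P28 replicate 1 and P28 replicate 2), inner hair cells (IHC-like; 60, 113 and 76), Deiters' and pillar cells (DC/PC-like; 73, 82 and 46), inner phalangeal and border cells (IPhC/IB-like; 290 and 345, P28 only), sulcus and Hensen's cells (ISC/HeC/OSC-like; 482, 859 and 826), Reissner's membrane (RM-like; 40, 415 and 400), tympanic border cells (TBC-like; 64, 942 and 1245) and fibrocytes (93, 184 and 268, from differently led clusters at the ages, Moxd1 at P14 and Coch at P28). Clusters led mostly by Ccl11 and Dcn, or at P14 by Apod with Dcn or Ptn, did not meet the naming rule and are called the Ccl11/Dcn-led clusters. Levels are given as CPM, a gene's share of all UMIs of a class within a library, scaled to the same total for every class, and 3 values in a row are given in the order P14, P28 replicate 1, P28 replicate 2. The defining markers separated the hair cell classes: Ocm, the calcium buffer of outer hair cells, was at 31352, 17547 and 17544 CPM among OHC-like cells and at 151, 270 and 323 CPM in IHC-like cells, whereas Otof, the synaptic calcium sensor of inner hair cells, was at 3328, 3046 and 2935 CPM in IHC-like cells and at 69.8, 506 and 441 CPM among OHC-like cells.

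In the GENCODE M21 annotation of GRCm38 the members lie on 7 chromosomes, and 4 of them form neighbouring pairs. Cldn3 (chr5:134986214-134987472, plus strand) and Cldn4 (chr5:134945119-134946934, minus strand) are single-exon genes 39279 bases apart. Cldn6 (chr17:23679249-23682446, plus strand) and the single-exon Cldn9 (chr17:23682584-23684026, minus strand) point at each other with 137 bases between their ends, so reads at their 3′ ends are told apart by strand. Cldn8 (chr16:88560828-88563183, minus strand) is a single-exon gene, and Cldn14 (chr16:93919031-94008837, minus strand) lies on the same chromosome with 2 to 3 exons in its coding transcripts. The others are Cldn7 (chr11:69964779-69967885, plus strand, 3 to 5 exons), Cldn10 (chr14:118787908-118875489, plus strand, 4 to 5 exons), Cldn11 (chr3:31149920-31164324, plus strand, 3 exons) and Marveld2 (chr13:100595957-100616971, minus strand, 6 to 8 exons).

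The RefSeq promoter table (GRCm38.p6) held entries for 8 of the 10 members. The 250 bases before the start are shown for the neighbours Cldn3 and Cldn4, which were both high in Reissner's membrane, for Cldn11, the member that was high outside the barrier epithelia, and for Marveld2, which was high in hair cells. Capitals mark matches on either strand, none of which shared a base. The motif searched for Sp1-like factors was GGGCGG. That of the core promoter element was TATAAA, that of the Snail and Zeb repressors was the E-box CAGGTG, and that of the grainyhead-like factors was AACNNGTT.
Cldn3, chr5:134985964-134986213, plus strand: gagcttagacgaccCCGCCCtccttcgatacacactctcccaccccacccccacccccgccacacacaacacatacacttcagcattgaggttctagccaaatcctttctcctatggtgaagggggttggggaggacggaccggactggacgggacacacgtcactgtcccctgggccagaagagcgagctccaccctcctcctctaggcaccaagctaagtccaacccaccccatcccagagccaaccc
Cldn4, chr5:134946935-134947184, minus strand: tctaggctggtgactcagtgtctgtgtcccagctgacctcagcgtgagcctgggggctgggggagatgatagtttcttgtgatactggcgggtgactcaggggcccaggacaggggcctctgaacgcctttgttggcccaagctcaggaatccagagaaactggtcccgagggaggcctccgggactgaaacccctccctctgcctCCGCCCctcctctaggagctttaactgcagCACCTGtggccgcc
Cldn11, chr3:31149670-31149919, plus strand: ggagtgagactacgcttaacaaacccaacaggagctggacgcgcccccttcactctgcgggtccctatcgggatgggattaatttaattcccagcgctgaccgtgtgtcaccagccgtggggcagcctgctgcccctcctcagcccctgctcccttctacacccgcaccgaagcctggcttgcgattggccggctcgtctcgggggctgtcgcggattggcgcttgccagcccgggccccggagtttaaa
Marveld2, chr13:100616972-100617221, minus strand: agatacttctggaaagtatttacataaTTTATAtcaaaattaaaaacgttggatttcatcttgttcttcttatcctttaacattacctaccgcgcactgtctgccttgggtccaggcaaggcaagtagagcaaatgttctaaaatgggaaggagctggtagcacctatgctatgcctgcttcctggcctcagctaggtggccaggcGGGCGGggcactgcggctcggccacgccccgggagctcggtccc
Cldn3 had 1 GGGCGG, Cldn4 had 1 GGGCGG and 1 CAGGTG, and Marveld2 had 1 GGGCGG and 1 TATAAA. The TATAAA match read on the opposite strand and lay near the end of the window farthest from the start. None of the 4 motifs was found in the window of Cldn11. Among 32851 promoter windows of the same length, 32.7% held GGGCGG, 12.4% TATAAA, 17.2% CAGGTG and 3.64% AACNNGTT. A match of letters is a description and not a bound site.

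Each member was first compared between a class and the remaining cells of its libraries, in 14 classes. In the main fit, members were called higher in 7 epithelial classes. In ISC/HeC/OSC-like cells 7 of 10 members tested were higher (20.1% of all genes tested were higher there). RM-like cells had 6 of 9 higher (15.8%), spindle and root cells (SpC/RC-like) 6 of 10 (6.93%) and IPhC/IB-like cells 4 of 10 (19.9%). OHC-like cells had 3 of 9 higher (26.1%) and 4 lower, and the median log2 fold change there was -0.62 for the members and -0.02 for all genes. IHC-like (13.8%) and DC/PC-like cells (4.74%) each had 2 of 9 members higher. Cldn9 was among the higher members in all 7 classes, but many of these calls were lost in an alternative, by edgeR unless named. Without P28 replicate 1 it lost the call in OHC-like (adjusted p = 0.0511), RM-like (0.479) and ISC/HeC/OSC-like cells (0.137). Without P28 replicate 2 it lost the call in DC/PC-like (0.0962), RM-like (0.509) and ISC/HeC/OSC-like cells (0.124). Cldn7 lost its call in DC/PC-like cells in that setting as well (0.210), which left none higher there. With at most 3000 genes and 15000 UMIs per cell, Cldn9 lost the call in IHC-like cells (0.174). In SpC/RC-like cells it was lost with DESeq2 (0.148) and with up to 30% mitochondrial UMIs (0.222). After thinning to 1000 UMIs per cell, Cldn4, Cldn6, Cldn7 and Cldn9 all lost their calls in SpC/RC-like cells (0.130 to 0.825). Lower in OHC-like cells were 4 members, Cldn3, Cldn4, Cldn8 and Cldn11 (30.5% of all genes were lower there). Cldn4 was at 0 CPM in OHC-like cells at P14 and at a mean of 0.58 CPM at P28. It passed the count filter through the remaining cells, so hardly any call but lower was possible for it. Cldn8 and Cldn11 were lower in IHC-like (20.6%) and DC/PC-like cells (7.16%). The smallest sum of Cldn8 held 1 UMI in each of these 3 comparisons, and that of Cldn11 for DC/PC-like cells held 0. Cldn11 alone was lower in IPhC/IB-like (26.9%), ISC/HeC/OSC-like (21.9%) and SpC/RC-like cells (12.3%), and Cldn14 alone in RM-like cells (22.5%). In IPhC/IB-like cells 2 calls turned with the choice of cells, by edgeR. Cldn11 was called higher there with up to 30% mitochondrial UMIs (0.38, adjusted p = 0.000122), without integration (0.31, 0.00887) and at resolution 2 (0.28, 0.0137). Cldn14 was called lower with up to 30% mitochondrial UMIs (-0.67, 4.1e-07). Its higher call was also lost without integration, at resolution 2, after thinning and with DESeq2. No member was higher in any of the other 7 classes, although without the P14 library Cldn11 was called higher in TBC-like cells (0.39, adjusted p = 0.0136), red blood cells (0.82, 0.00661) and macrophages (0.36, 0.0398), and at resolution 2 in fibrocytes (1.07, 1.8e-07). In these 7 classes 24.6% (TBC-like), 4.11% (fibrocytes), 35.8% (neurons), 4.01% (Schwann and satellite glial cells), 14.4% (macrophages), 11.2% (granulocytes) and 0.814% (red blood cells) of all genes were higher. Spiral ganglion neurons (SGN-like) had all 10 members lower, against 42.5% of all genes, and TBC-like cells had 9 of 10 lower, against 30.7%. Macrophages had 6 of 8 lower (16.1%), fibrocytes 5 of 9 (6.55%), granulocytes 5 of 10 (12.9%) and Schwann and satellite glial cells 4 of 10 (6.28%). Several members passed the count filter there through the remaining cells, so for them hardly any call but lower was possible. Cldn4 and Cldn6 had 0 UMIs in SGN-like cells, and Cldn14 had 0 in granulocytes and in Schwann and satellite glial cells. Cldn9 and Cldn14 had 0 in TBC-like cells at P14. With at most 3000 genes and 15000 UMIs per cell, the SGN-like calls on Cldn4, Cldn6, Cldn10 and Marveld2 were lost (edgeR adjusted p from 0.115 to 0.266). In red blood cells none of 8 members tested was called by edgeR, where 1.17% of all genes were lower, 1 member had an unadjusted p under 0.05 and DESeq2 called 0 with 2 not given an adjusted p.

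Macrophages and red blood cells are not epithelial cells, and the members' levels there were taken as the background; whether free RNA or attached cells supply these UMIs was not tested. Cldn9 was at 25.7, 31.0 and 29.0 CPM in macrophages and at 6.75, 60.3 and 54.3 CPM in red blood cells, at median depths of 3591, 2245 and 2032 UMIs and of 4980.5, 3647 and 2577 UMIs. Cldn14 reached 17.1, 7.39 and 2.76 CPM in macrophages, and Marveld2 8.57, 1.48 and 4.14 CPM. Cldn4 and Cldn6 had 0 UMIs in the macrophages of all 3 libraries, which allows levels of up to 8.57, 4.43 and 4.14 CPM (3 UMIs, counting error only). A level in another class that does not exceed these is read as background.

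**Figure D1:**
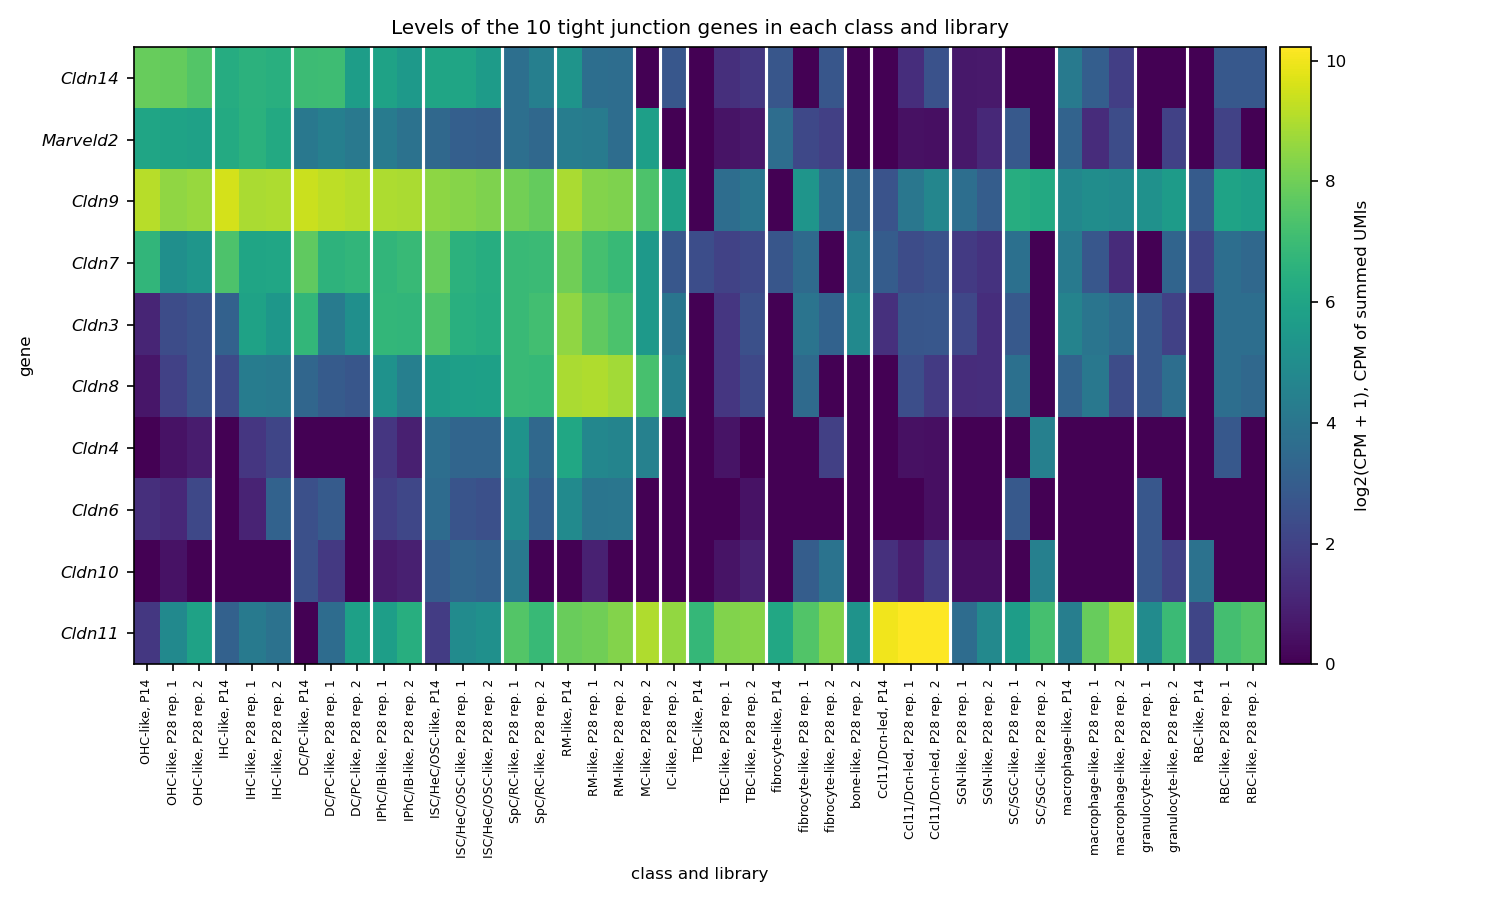
Levels of the 10 members (rows) in each class and library (columns, grouped by class between white lines), as colour on a log2(CPM + 1) scale; classes with under 10 cells in a library are left out. Hair cells show Cldn14 and Marveld2, and Cldn9 is bright in hair cells, supporting cells and Reissner's membrane (RM-like) alike. Reissner's membrane shows Cldn8 and Cldn3, and Cldn11 is brightest in the Ccl11/Dcn-led clusters.

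The question of where the barrier genes sit was asked directly by summing the epithelia that border endolymph (hair cells, supporting cells, sulcus, SpC/RC-like, RM-like and 21 marginal cells) and comparing them with the summed mesenchyme (TBC-like, fibrocyte and bone cells) of the same library. 7 claudins and tricellulin were higher in the epithelia: these 8 members compare with 25.5% of all genes tested that were higher, and 1 member, Cldn11, was lower, against 26.6%. The members passed the count filter mostly through the epithelia: 6 of the 10 had 0 UMIs in the P14 mesenchyme, and Cldn11 alone could be tested when 10 UMIs were required in every sum. Cldn9 was at 476, 388 and 363 CPM in the epithelia and at 0, 13.2 and 14.5 CPM in the mesenchyme. Cldn14 was at 126, 97.2 and 68.5 CPM against 2.49, 1.52 and 2.33 CPM. Cldn7 was at 182, 85.5 and 85.3 CPM against 4.98, 3.47 and 3.68 CPM. All epithelial values lay far above all mesenchymal ones, with no overlap, and each mesenchymal value was no higher than that of macrophages or of red blood cells in the same library.

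By the edgeR quasi-likelihood test with Benjamini-Hochberg adjustment, the log2 fold changes were 5.24 ± 0.27 (SE) for Cldn14, 4.95 ± 0.53 for Cldn9, 4.71 ± 0.35 for Marveld2, 4.70 ± 0.23 for Cldn8, 4.49 ± 0.21 for Cldn7 and 4.22 ± 0.35 for Cldn3, each with an adjusted p of 0.000614 or less. The smallest sum of each of these members held only 0 to 2 UMIs, and they passed the count filter mostly through the epithelia. A higher call was therefore close to fixed in advance, and the size of these folds is not firm. Cldn4 and Cldn6 had 176 and 137 UMIs in the epithelia and 3 and 2 in the mesenchyme of all libraries together, which leaves no firm fold (adjusted p = 0.000676 and 0.00195). Cldn10, a paracellular ion pore, was at 3.86, 4.23 and 3.22 CPM against 0, 0.868 and 1.74 CPM and did not pass (log2 fold change 1.41 ± 0.49, adjusted p = 0.0538), although it was higher in the epithelia in 3 of 3 libraries. Cldn10 passed without the P14 library (1.39, adjusted p = 0.00455) and in 5 other alternatives by edgeR (RLE size factors, no filter on low counts, no replicate block, tight junction genes allowed as variable genes, and without the highest doublet scores; adjusted p from 0.0375 to 0.0475), and did not pass with DESeq2 (0.0870). Cldn11, the claudin of myelin and of the strial basal cells, went the other way, at 6.98, 56.7 and 88.4 CPM in the epithelia and 92.1, 305 and 326 CPM in the mesenchyme (log2 fold change -2.65 ± 0.31, adjusted p = 0.000811). Its summed mesenchymal values all exceeded its summed epithelial ones, but the epithelial classes differed. RM-like cells alone were at 238 CPM at P14, above the mesenchyme of that library, and at a mean of 286 CPM at P28. The marginal cells of P28 replicate 2 were at 512 CPM. The call was lost when cells with up to 30% mitochondrial UMIs were admitted (-2.13, edgeR adjusted p = 0.0786). In macrophages Cldn11 was at 20.0 CPM at P14 and at a mean of 326 CPM at P28. The summed epithelia lay below the macrophages of each library. The mesenchyme exceeded the macrophages at P14 and in P28 replicate 1, but not in P28 replicate 2. There it still lay above the red blood cells, whose mean at P28 was 160 CPM. The background classes thus differ for Cldn11, and the part of background in the mesenchymal level of P28 replicate 2 was not tested.

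Of the 25 other tight junction genes tested, 14 were higher in the epithelia and 8 lower. The largest changes belonged to the plaque scaffolds Tjp3 (5.16 ± 0.36) and Cgn (5.12 ± 0.29) and to Marveld3 (5.06 ± 0.36), a relative of tricellulin (log2, edgeR adjusted p = 0.000157 or less). Cgn was at 209, 222 and 182 CPM in the epithelia and at 2.49, 4.56 and 6.39 CPM in the mesenchyme.

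**Figure D2:**
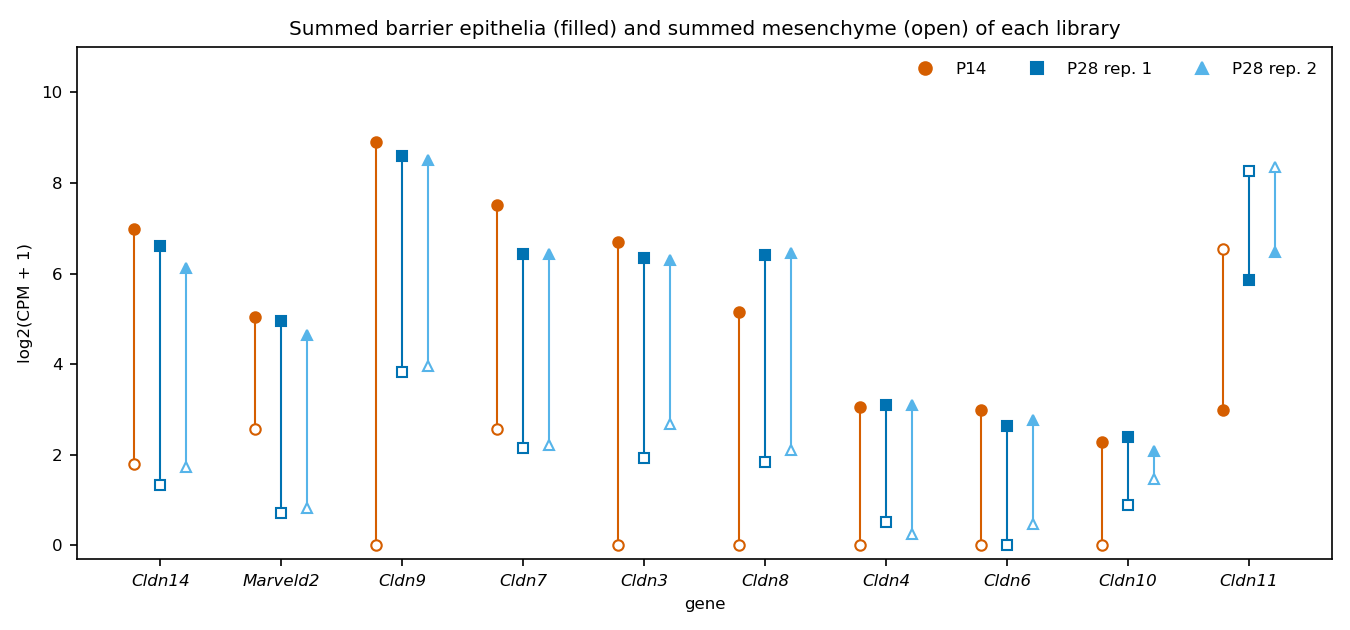
Level of each member in the summed barrier epithelia (filled) and the summed mesenchyme (open) of the same library, joined by a line, on a log2(CPM + 1) scale. In 9 genes the filled symbol is above the open one in every library, and for Cldn11 it is below.

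Within the sensory epithelium, Cldn14 was the member that set outer hair cells apart. Cldn14 forms cation-restricting strands at the apical junctions of the organ of Corti. Its level was 228, 222 and 179 CPM among OHC-like cells (mean over both ages 210 ± 26.9 SD, n = 3 libraries). DC/PC-like cells had 128, 132 and 50.3 CPM and IHC-like cells 79.2, 93.9 and 85.8 CPM. ISC/HeC/OSC-like cells had 64.0, 63.6 and 48.2 CPM, and IPhC/IB-like cells 58.6 and 45.4 CPM at P28. RM-like cells had 38.0, 11.9 and 11.6 CPM, and tympanic border cells, neurons and glia 0 to 2.13 CPM. The outer hair cells of every library exceeded every other class, the DC/PC-like and IHC-like ranges overlapped, and Reissner's membrane lay closer to the macrophages (17.1, 7.39 and 2.76 CPM) than to any sensory class. A Cldn14 UMI was found in 72.2% (exact binomial 95% interval 66.5 to 77.4), 76.5% (71.7 to 80.8) and 52.8% (46.8 to 58.8) of OHC-like cells and in 1.32%, 2.11% and 0.707% of macrophages, at median depths of 6509, 5233 and 3750.5 against 3591, 2245 and 2032 UMIs. Thinned to 1000 UMIs per cell, the shares were 20.4%, 21.7% and 16.7% against 0%, 0.485% and 0.749%.

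Outer hair cells were compared with the Deiters' and pillar cells that meet them in the reticular lamina. Of 6 members tested, 2 were higher in OHC-like cells, where 16.5% of all genes were higher, and 2 were lower, where 17.2% were lower. The higher members were Cldn14 (log2 fold change 0.99 ± 0.26, adjusted p = 0.0243) and Marveld2 (1.72 ± 0.30, adjusted p = 0.00502) by edgeR. Marveld2 was at 63.4, 60.3 and 57.6 CPM among OHC-like cells and at 16.3, 20.1 and 16.8 CPM in DC/PC-like cells, with no overlap. The call on Cldn14 was lost without P28 replicate 1 (1.17, adjusted p = 0.0690) and without P28 replicate 2 (0.79, adjusted p = 0.144).

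The lower members were Cldn3 and Cldn7, claudins of many absorptive and secretory epithelia. Cldn3 was at 1.07, 4.24 and 5.10 CPM among OHC-like cells, no more than in macrophages (22.8, 14.8 and 11.04 CPM), and at 107, 17.9 and 33.5 CPM in DC/PC-like cells (log2 fold change -3.74 ± 0.81, edgeR adjusted p = 0.0120). Cldn7 was at 106, 33.5 and 40.1 CPM against 209, 96.0 and 106 CPM (-1.32 ± 0.23, adjusted p = 0.00508). Within each library the hair cells were the lower of the pair for both genes, although the P14 hair cells reached the P28 supporting cells in Cldn7. Both calls were lost without P28 replicate 2 (Cldn3 -4.11, adjusted p = 0.0626; Cldn7 -1.24, adjusted p = 0.0605). The DC/PC-like cells also carried the hair cell transcript Ocm at 330, 2600 and 1341 CPM, against 54.3, 25.7 and 25.9 CPM in ISC/HeC/OSC-like cells, and the part of this in the supporting cell levels of Cldn14 was not tested.

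Cldn9, a claudin that limits paracellular potassium entry to the fluid around hair cell bodies, was at 556, 372 and 399 CPM among OHC-like cells and at 683, 596 and 542 CPM in DC/PC-like cells. The hair cells were lower in 3 of 3 libraries, and the difference did not pass (-0.52 ± 0.19, edgeR adjusted p = 0.0701) except without the P14 library (-0.71, adjusted p = 0.00292). Cldn11 did not pass either (0.65 ± 0.50, edgeR adjusted p = 0.356), and its levels in both classes were no higher than in the blood cells of the same library.

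The other tight junction genes divided between hair cells and Deiters' and pillar cells as well, with 5 of 19 tested higher in OHC-like cells and 5 lower. The scaffold Magi3 was at 1181, 1189 and 1000 CPM among OHC-like cells and at 102, 248 and 123 CPM in DC/PC-like cells (log2 fold change 2.87 ± 0.28). Cldn23 (-4.25 ± 0.60) and Marveld3 (-3.92 ± 0.52) were lower in the hair cells, Cldn23 at 2.13, 2.12 and 8.02 CPM against 65.1, 91.5 and 39.1 CPM. All 3 had an edgeR adjusted p of 0.00243 or less, and their values did not overlap. The median log2 fold change was 0.06 for the members and 0.06 for the other tight junction genes, beside 0.08 for all genes.

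Between the hair cell classes, 2 of 5 members tested were higher in OHC-like cells (17.1% of all genes) and 1 was lower (17.4%). Cldn14 was higher in outer than in inner hair cells in 3 of 3 libraries, at the levels given above, with no overlap (log2 fold change 1.39 ± 0.17, edgeR adjusted p = 0.000108). Marveld2 was at 75.3, 90.8 and 74.0 CPM in IHC-like cells and lower in OHC-like cells of each library without overlap, a difference that did not pass the test (-0.29 ± 0.18, edgeR adjusted p = 0.242). Cldn9 was at 765, 491 and 501 CPM in IHC-like cells, higher than in OHC-like cells of the same library in 3 of 3 (-0.26 ± 0.14, edgeR adjusted p = 0.190), and passed only without the P14 library (-0.25, adjusted p = 0.0185).

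Cldn7 was at 166, 64.0 and 65.6 CPM in IHC-like cells and lower in OHC-like cells (-0.63 ± 0.18, edgeR adjusted p = 0.0184). That call was lost without P28 replicate 1 (-0.55, adjusted p = 0.233) and without P28 replicate 2 (-0.64, adjusted p = 0.102). Cldn11 was called higher in OHC-like cells (1.30 ± 0.42, adjusted p = 0.0342), from 2.13, 27.6 and 59.1 CPM against 7.92, 17.5 and 13.5 CPM, all below the 20.0, 232 and 420 CPM of macrophages, and it lost the call without P28 replicate 1 (1.75, adjusted p = 0.142) or replicate 2 (0.49, adjusted p = 0.633). Emilin2, a marker of tympanic border cells, was at 4.80, 121 and 102 CPM among OHC-like cells and at 0, 23.7 and 1.68 CPM in IHC-like cells, and its part in the Cldn11 difference was not tested. Of 20 other tight junction genes tested, 5 were higher in OHC-like cells and 8 lower, the largest differences being those of Cldn23 (-3.69 ± 0.41), Marveld3 (-3.00 ± 0.35) and Jam3 (-2.39 ± 0.48), with edgeR adjusted p of 0.00299 or less. The median was -0.26 for the members, -0.34 for the other tight junction genes and 0.05 for all genes.

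Inner hair cells and the IPhC/IB-like cells around them could be compared at P28 only. Of 7 members tested, 2 were higher in the inner hair cells (24.6% of all genes) and 4 lower (23.1%), with a median of -0.80 beside 0.09 for the other tight junction genes and 0.00 for all genes. Marveld2 was at 90.8 and 74.0 CPM in IHC-like cells of P28 replicates 1 and 2 and at 17.9 and 13.3 CPM in IPhC/IB-like cells (log2 fold change 2.31 ± 0.25, edgeR adjusted p = 2.2e-19). Cldn14 was at 93.9 and 85.8 CPM against 58.6 and 45.4 CPM (0.70 ± 0.19, adjusted p = 0.000705). Both genes were higher in the hair cells of each library without overlap. DESeq2 called Marveld2 (adjusted p = 5.9e-05) but not Cldn14 (adjusted p = 0.242), and Cldn14 also lost its call after thinning and with at most 3000 genes and 15000 UMIs per cell. With 2 libraries, the fit took most of its precision from the spread shared across genes, which makes these p-values small.

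The lower members in inner hair cells were Cldn3 (57.8 and 42.04 CPM against 109 and 107 CPM, -1.14 ± 0.18), Cldn7 (64.0 and 65.6 CPM against 106 and 118 CPM, -0.84 ± 0.17), Cldn8 (18.6 and 16.8 CPM against 35.9 and 20.5 CPM, -0.80 ± 0.33) and Cldn11 (17.5 and 13.5 CPM against 51.7 and 84.5 CPM, -2.07 ± 0.28), with edgeR adjusted p from 9.6e-13 to 0.0334. Cldn9 was at 491 and 501 CPM against 505 and 480 CPM and did not separate the classes (-0.06 ± 0.12, adjusted p = 0.727). These results depend on which cells count as IPhC/IB-like: with up to 30% mitochondrial UMIs, at resolution 2 and without integration, Cldn9 was called higher in inner hair cells (1.07, 0.87 and 0.88) and Cldn3, Cldn7 and Cldn8 lost their calls, while Marveld2 and Cldn14 stayed higher and Cldn11 lower. Slc1a3, the glutamate transporter of the inner phalangeal cells, was at 895 and 797 CPM in IHC-like cells at P28 and at 194 CPM at P14, against 1914 and 1940 CPM in IPhC/IB-like cells. Cldn3 in IHC-like cells moved with it, from 7.92 CPM at P14 to 57.8 and 42.04 CPM at P28, and the part of attached supporting cells was not tested. Of 21 other tight junction genes tested, 5 were higher and 6 lower in inner hair cells, among them the higher scaffolds Cgn (2.05 ± 0.13) and Magi3 (1.85 ± 0.14). Marveld1 was lower, with 2 and 0 UMIs in IHC-like cells against 15 and 12 UMIs (edgeR adjusted p = 0.00104).

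**Figure D3:**
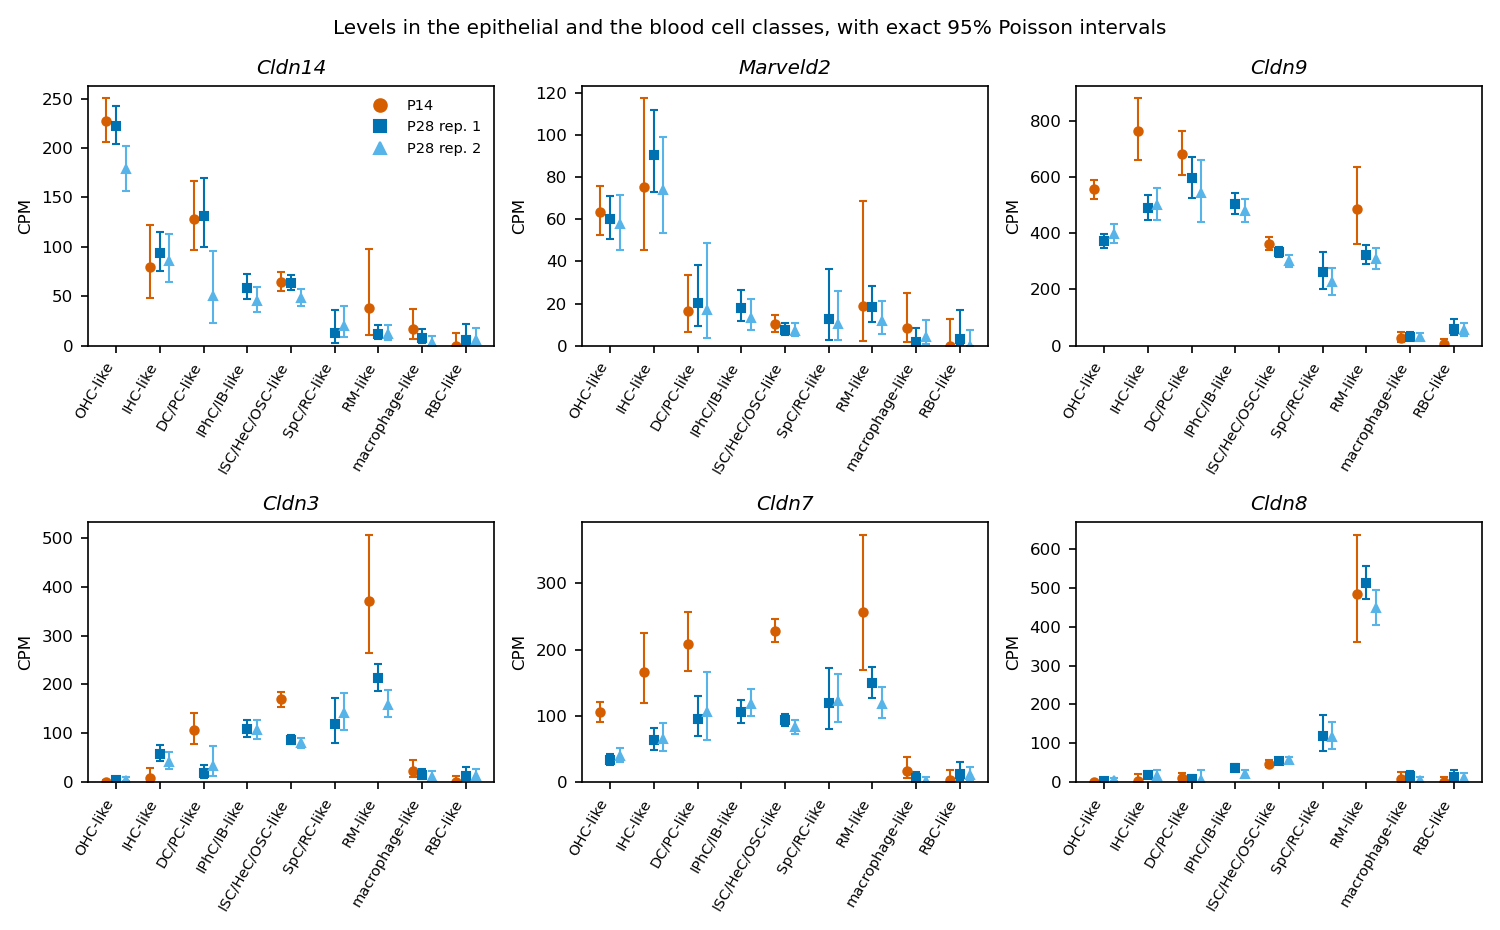
Levels of 6 members in CPM (vertical axes, starting at 0) in the epithelial and the blood cell classes, 1 symbol per library with exact 95% Poisson intervals (counting error only). Cldn14 is highest in OHC-like cells, Marveld2 in both hair cell classes, and Cldn8 in RM-like cells, in every library.

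Deiters' and pillar cells had lower levels of Cldn3 and Cldn8 than the sulcus and Hensen's cells that flank them, and a higher level of Cldn9. Of 9 members tested, 1 was higher in DC/PC-like cells (9.99% of all genes) and 3 were lower (9.99%). Cldn8, a claudin of tight distal nephron and colon epithelia, was at 9.29, 6.69 and 5.59 CPM in DC/PC-like cells and at 47.4, 53.8 and 55.98 CPM in ISC/HeC/OSC-like cells (log2 fold change -2.97 ± 0.37, edgeR adjusted p = 0.000216), with no overlap. Cldn4 had 0 UMIs in the DC/PC-like cells of all 3 libraries, against 11.9, 9.04 and 9.21 CPM in ISC/HeC/OSC-like cells, and was at least 3.49-fold lower with 3 UMIs over the 3 libraries as the floor (adjusted p = 0.0143). It passed the count filter through the sulcus alone. Hardly any call but lower was possible for it, although it is 1 of the 3 counted as lower. Cldn3 was at 107, 17.9 and 33.5 CPM against 169, 86.8 and 79.4 CPM (-1.42 ± 0.30, adjusted p = 0.00650), lower in 3 of 3 libraries although the P14 value lay above the P28 values of the sulcus.

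The member higher in Deiters' and pillar cells was Cldn9, at 683, 596 and 542 CPM against 363, 333 and 300 CPM without overlap (0.66 ± 0.17, edgeR adjusted p = 0.0194). This call did not hold without P28 replicate 1 (0.69, adjusted p = 0.126) or without P28 replicate 2 (0.65, adjusted p = 0.159), at nearly the same fold. Cldn14 (0.62 ± 0.23, adjusted p = 0.0809) and Marveld2 (0.89 ± 0.43, adjusted p = 0.189) were higher in 3 of 3 libraries and did not pass, and Cldn7, Cldn10 and Cldn11 did not pass either. The median over the 9 members was -0.61, the same with Cldn4 at its bound, beside -0.01 for 21 other tight junction genes and -0.01 for all genes. Of those 21, 6 were higher and 6 lower, and the largest differences were lower levels of the scaffolds Cgnl1 (-3.15 ± 0.67) and Magi1 (-2.74 ± 0.48) and of the adhesion molecule F11r (-1.72 ± 0.21; edgeR adjusted p = 0.00711 or less).

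Reissner's membrane, the roof of the endolymph space, was compared with the sulcus epithelium of its floor. RM-like cells carried more of 5 of the 10 members (18.1% of all genes were higher) and less of 2 (21.1%). The median was 0.67 for the members, 0.05 for 24 other tight junction genes and -0.01 for all genes. Cldn8 was at 485, 513 and 448 CPM in RM-like cells. In no other named class was it above the 152 CPM of the 21 marginal cells (exact Poisson 95% interval 83.4 to 256). It was at 47.4, 53.8 and 55.98 CPM in the sulcus (log2 fold change 2.75 ± 0.16, edgeR adjusted p = 1.1e-11). The RM-like values lay close together and far above the sulcus at both ages.

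Cldn3 was at 371, 213 and 159 CPM in RM-like cells, against 169, 86.8 and 79.4 CPM in the sulcus (0.72 ± 0.15, edgeR adjusted p = 0.000578). Its neighbour Cldn4, a sodium-restricting claudin, was at 66.5, 25.6 and 23.2 CPM against 11.9, 9.04 and 9.21 CPM (1.17 ± 0.29, adjusted p = 0.00270), and Cldn6, a claudin of embryonic epithelia, at 28.5, 14.7 and 15.1 CPM against 10.8, 5.38 and 4.61 CPM (1.10 ± 0.36, adjusted p = 0.0195). For Cldn4 and Cldn6 the groups did not overlap, but for Cldn3 the P14 sulcus reached the P28 Reissner's membrane. Without P28 replicate 1 the calls on Cldn3 (0.64, adjusted p = 0.133) and Cldn6 (1.18, adjusted p = 0.221) were lost, and that on Cldn6 was lost without P28 replicate 2 as well (0.97, adjusted p = 0.261). RM-like cells gave 7, 28 and 20 UMIs of Cldn4 and 3, 16 and 13 UMIs of Cldn6, so these 2 levels rest on few molecules.

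Cldn11 was at 238, 254 and 318 CPM in RM-like cells against 2.52, 29.8 and 34.0 CPM in the sulcus (3.03 ± 0.26, edgeR adjusted p = 5.5e-09), without overlap. At P14 the RM-like value exceeded that of macrophages (20.0 CPM), and at P28 it lay within the range of macrophages (232 and 420 CPM). Cldn14 was lower in RM-like cells (-2.51 ± 0.26, edgeR adjusted p = 1.1e-07), and Cldn10 had 1 UMI in all RM-like cells against 79 in the sulcus (adjusted p = 0.000211). Cldn10 passed the count filter through the sulcus, so hardly any call but lower was possible for it. It is still 1 of the 2 members counted as lower. Cldn9 was at 485, 323 and 307 CPM against 363, 333 and 300 CPM (-0.33 ± 0.15, adjusted p = 0.101; without the P14 library -0.43, adjusted p = 0.000257), and Cldn7 was at 257, 149 and 118 CPM against 228, 93.1 and 82.9 CPM (0.08 ± 0.16, adjusted p = 0.740). The normalisation factors of edgeR lowered log2 folds in this comparison by 0.44 relative to ratios of CPM, which is why Cldn9 has a negative fold with CPM higher in 2 of 3 libraries. Of the 24 other tight junction genes 4 were higher and 5 lower, with the largest differences in Cldn22 (57.0, 12.8 and 8.12 CPM against 3 UMIs in the sulcus of all libraries), Cldn23 (-1.85 ± 0.22) and the angulin Ildr1 (-1.52 ± 0.19), each with an edgeR adjusted p of 5.8e-06 or less.

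The spindle and root cells of the lateral wall, present at P28 only, had a mixture of the same claudins. Cldn3 was at 120 and 141 CPM there, Cldn7 at 120 and 123 CPM, Cldn8 at 120 and 116 CPM and Cldn9 at 261 and 226 CPM, while Cldn14 was at 12.4 and 20.1 CPM and Marveld2 at 12.4 and 10.1 CPM. The first 4 differed little between the replicates and stood above the blood cells, and the last 2 rested on 3 to 8 UMIs per library. The 21 marginal cells, from P28 replicate 2 alone, had Cldn11 at 512 CPM, Cldn9 at 163 CPM, Cldn8 at 152 CPM and Marveld2 at 54.5 CPM (5 UMIs). Cldn10 stayed low throughout, and its highest level in a class with 10 or more UMIs per library was that of the sulcus, at 6.83, 9.04 and 8.15 CPM.

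Cldn11 followed an order unlike that of the other members. It was highest in the Ccl11/Dcn-led clusters at 1041, 1197 and 1198 CPM, in 76.3%, 87.2% and 81.3% of cells. The mean over both ages was 1145 ± 90.6 SD (n = 3 libraries), and the SD between the P28 libraries alone was 1.34 CPM. The paper used Cldn11 as its marker of strial basal cells, but no basal cell class was named here. Basal cells therefore have no rank of their own. They may lie in any of the clusters, the Ccl11/Dcn-led ones included, and which clusters hold them was not tested. In P28 replicate 2 the 21 marginal cells stood at 512 CPM, with a counting interval that included the level of macrophages. The intermediate cells of the stria stood at 378 CPM in that library, below macrophages. Tympanic border cells had 110, 313 and 334 CPM, RM-like cells 238, 254 and 318 CPM and fibrocytes 68.8, 176 and 311 CPM. Sensory and sulcus epithelium stood at 0 to 84.5 CPM, and neurons at 11.4 and 26.9 CPM. The Ccl11/Dcn-led clusters exceeded every named class in each library, while the ranges of Reissner's membrane, tympanic border cells and fibrocytes overlapped one another and that of macrophages.

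In macrophages the Cldn11 level was 20.0, 232 and 420 CPM, and in red blood cells 3.38, 142 and 179 CPM. The share of cells with a Cldn11 UMI was 3.95%, 13.9% and 27.6% in macrophages and 23.4%, 51.0% and 50.8% in tympanic border cells, at median depths of 3591, 2245 and 2032 UMIs against 2005.5, 2024.5 and 2191 UMIs. Emilin2, which marks tympanic border cells (14238, 3365 and 3537 CPM), was at 20.0, 145 and 269 CPM in macrophages and so moved between libraries in the same order as Cldn11. The part of free RNA and attached cells in the Cldn11 levels of blood and sensory cells was not tested. When the Ccl11/Dcn-led clusters were counted with the mesenchyme, an alternative chosen after seeing the data, the log2 fold change of Cldn11 between epithelia and mesenchyme went from -2.65 to -4.24.

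**Figure D4:**
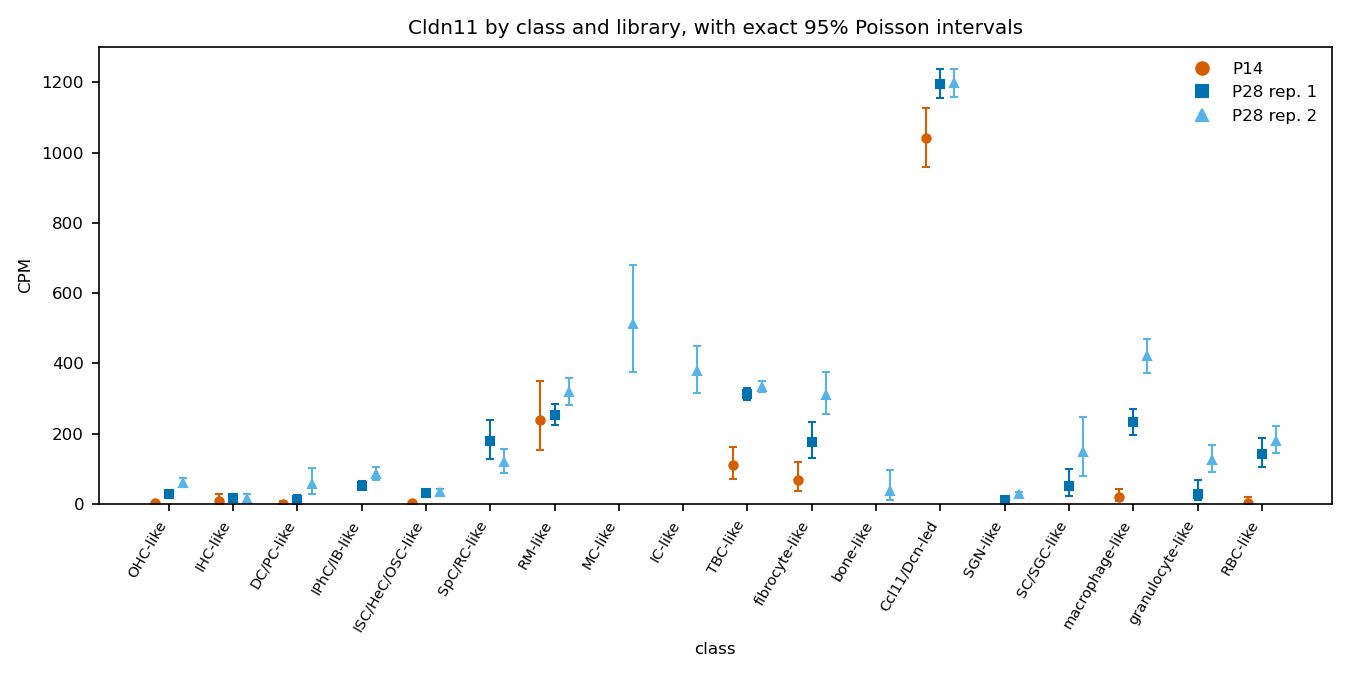
Cldn11 level in CPM (vertical axis, starting at 0) by class, 1 symbol per library with exact 95% Poisson intervals (counting error only). The Ccl11/Dcn-led clusters lie between 1041 and 1198 CPM and above every other class, and the macrophages of P28 lie among the classes of the lateral wall and Reissner's membrane.

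The ages were compared as values only. A P14 level was counted as apart where its exact Poisson 95% interval, which covers counting error only, overlapped neither P28 interval. This held for 17 of 58 levels of a member in a class with 10 or more UMIs, 10 higher and 7 lower at P14. With each cell thinned to 1000 UMIs, which leaves fewer molecules, 4 of 40 levels were apart: Cldn3 and Cldn7 higher and Cldn11 lower in ISC/HeC/OSC-like cells, and Cldn11 lower in macrophages. Before thinning, Cldn7 accounted for 4 of the 10: it was higher at P14 in OHC-like cells (106 against 33.5 and 40.1 CPM), IHC-like cells (166 against 64.0 and 65.6 CPM), DC/PC-like cells (209 against 96.0 and 106 CPM) and ISC/HeC/OSC-like cells (228 against 93.1 and 82.9 CPM), or 2.87, 2.57, 2.07 and 2.59 times the P28 mean. In Reissner's membrane it was higher as well (257 against 149 and 118 CPM), with intervals that overlapped. The shares of all genes apart and higher at P14 were 8.51% in OHC-like, 5.02% in IHC-like, 4.46% in DC/PC-like, 12% in ISC/HeC/OSC-like, 2.56% in RM-like and 22.2% in red blood cells. No member was lower at P14 in DC/PC-like, IHC-like or RM-like cells, where 2.99%, 5.69% and 1.56% of all genes were, or higher in TBC-like cells, fibrocytes or macrophages, where 3.96%, 3.46% and 4.15% were.

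Cldn3 was higher at P14 in DC/PC-like cells (107 against 17.9 and 33.5 CPM), ISC/HeC/OSC-like cells (169 against 86.8 and 79.4 CPM) and RM-like cells (371 against 213 and 159 CPM). Cldn9 was higher in OHC-like cells (556 against 372 and 399 CPM), IHC-like cells (765 against 491 and 501 CPM) and RM-like cells (485 against 323 and 307 CPM), 1.44 to 1.54 times the P28 mean. IHC-like cells had a median of 1025.5 UMIs at P14 against 9309 and 8006.5 at P28, so depth also differs between the ages in this class. Epcam, the epithelial adhesion molecule that binds claudin-7, was at 1362 CPM at P14 against 518 and 480 CPM at P28 in DC/PC-like cells and at 893 against 305 and 287 CPM in ISC/HeC/OSC-like cells. Cldn14, Marveld2 and Cldn8 were not apart in any class: in OHC-like cells Cldn14 had intervals of 207 to 250 CPM at P14 and 204 to 242 and 157 to 202 CPM at P28, and Cldn8 in RM-like cells 361 to 637 CPM and 471 to 557 and 404 to 494 CPM.

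The 7 lower levels at P14 were Cldn9 in red blood cells and Cldn11 in 6 classes. Cldn11 was lower at P14 in TBC-like cells (110 against 313 and 334 CPM), fibrocytes (68.8 against 176 and 311 CPM), OHC-like cells (2.13 against 27.6 and 59.1 CPM), ISC/HeC/OSC-like cells (2.52 against 29.8 and 34.0 CPM), macrophages and red blood cells. The fibrocytes came from differently led clusters at the ages, so age and cell composition cannot be told apart there. The shares of all genes apart and lower at P14 were 4.33% in TBC-like cells, 2.91% in fibrocytes, 12.8% in OHC-like cells, 9.15% in ISC/HeC/OSC-like cells, 4.08% in macrophages and 2.69% in red blood cells. In the Ccl11/Dcn-led clusters, where Cldn11 was highest, the P28 levels were 1.15 times that at P14. Emilin2 in OHC-like cells, at 4.80 CPM at P14 against 121 and 102 CPM at P28, moved in the same direction, and the part of RNA from other cells was not tested.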

How the data were processed

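Cochlear tissue of mice at P14 (1 library) and P28 (2 libraries), freed from its bony wall, was dissociated and profiled by the authors with 10x Genomics 3′ chemistry. The deposited matrices hold UMI counts per gene and barcode, made with Cell Ranger (5.0.1 per the file headers, 6.0.1 in the submitters' processing notes, which name mm10), and no further normalization was applied to them by the authors.

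Barcodes with 200 to 6000 genes and at most 15% mitochondrial UMIs were kept. Cells were clustered in Seurat 5.3.0 (2000 variable genes without the tight junction genes, 30 components, resolution 1), P14 alone and P28 after integration, and named from marker genes. Counts were summed per class and library and tested with edgeR 4.0.16 (quasi-likelihood, TMM, library as a term, Benjamini-Hochberg threshold 0.05, R 4.3.3), since a library's classes come from the same mice, and the deviations of paired sums correlated at 0.07 to 0.54. DESeq2 1.42.0 was an alternative. Libraries are pools, and p-values rest on how far the difference between classes varied from library to library. The fit takes part of this spread from other genes. Intervals are exact binomial or Poisson at 95% and cover counting error only, and a count of 0 allows 3 UMIs. Shares were also taken after thinning to 1000 UMIs per cell. Scrublet called 3, 0 and 0 doublets, so removal of the 8% of cells with the highest scores was an alternative. In simulated counts, 71.5 to 91.5% of 200 genes changed 4-fold were recovered, by comparison. The text names the members and, in each comparison, the 3 other tight junction genes of 39 listed with the largest changes among those called. Members, lists and markers were chosen with earlier results of these data known.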

Additional observations from a re-analysis of the deposited data

Results flagged for a closer look

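The difference in Cldn11 between outer and inner hair cells had opposite signs at the ages, on few molecules at P14 (4 UMIs in OHC-like and 2 in IHC-like cells, with overlapping counting intervals). OHC-like minus IHC-like cells gave -5.791 CPM at P14 (2.132 against 7.923 CPM), 10.05 CPM in P28 replicate 1 (27.59 against 17.54 CPM) and 45.61 CPM in P28 replicate 2 (59.06 against 13.45 CPM). The difference between the ages was not tested, since P14 has 1 library, and all these levels lay below those of macrophages in the same library.

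The difference in Cldn7 between DC/PC-like and ISC/HeC/OSC-like cells also had opposite signs at the ages, with overlapping counting intervals in all 3 libraries and 90, 43 and 19 UMIs in DC/PC-like cells. Over the libraries Cldn7 did not pass the edgeR test between these classes (-0.15 ± 0.19, adjusted p = 0.637). It was -19.14 CPM at P14 (209.1 against 228.2 CPM), 2.821 CPM in P28 replicate 1 (95.95 against 93.13 CPM) and 23.23 CPM in P28 replicate 2 (106.1 against 82.91 CPM). This difference between the ages was not tested either.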

How the results depend on the processing

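Of 47 pairs of a member and a comparison, 33 were called. Of these, 18 kept the call in every alternative that tested them and 15 lost it in at least 1, and 6 pairs not called became called. The 33 include the members called higher in the epithelia than in the mesenchyme. Those calls were close to fixed in advance by the count filter, so how often they were kept says little. Members called between outer and inner hair cells (3) were 1 with DESeq2, 5 with no filter on low counts, 1 without the replicate block, 1 with at most 3000 genes and 15000 UMIs, 5 with up to 30% mitochondrial UMIs and 1 after thinning, and 1 to 6 with a library left out. Between inner hair cells and IPhC/IB-like cells (6) they were 3 with DESeq2 and 0 of 4 tested by edgeR after thinning, where 1 had an unadjusted p under 0.05; no value without a P28 library was possible there. With at least 10 UMIs required in every sum, 1 member was tested and called between epithelia and mesenchyme, 1 of 2 between outer hair cells and DC/PC-like cells, 1 of 2 between DC/PC-like and sulcus cells, 2 of 4 for Reissner's membrane, and 26 of 38 over the classes (81 in the main fit, 39 to 89 with a library left out, 39 without P28 replicate 1 and 42 without P28 replicate 2, where 9 classes were tested). Without the replicate block, 2 of 4 calls were left between outer hair cells and DC/PC-like cells and 2 of 4 between DC/PC-like and sulcus cells, and thinning gave 2 and 1. Leaving out a library gave 1 to 5 calls between outer hair cells and DC/PC-like cells. Thinning left 4 of 17 levels apart between the ages. Between inner hair cells and IPhC/IB-like cells, Cldn7 turned to 0.32 with up to 30% mitochondrial UMIs, 0.070 at resolution 2 and 0.071 without integration, Cldn8 to 0.10 with up to 30% mitochondrial UMIs, and Cldn9 to 1.07, 0.87 and 0.88 in the same 3 settings, in which 992 and 1619, 454 and 570, and 462 and 578 cells were IPhC/IB-like in place of 290 and 345. Leaving out clusters with nucleus-like RNA and adding the Ccl11/Dcn-led clusters to the mesenchyme were alternatives chosen after seeing the data. Except where cell or gene numbers are given, the cause was not tested. Depth limits Cldn4, Cldn6 and Cldn10 most, with few UMIs in each class.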

Other observations

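Cells without a class name carried several members. A P28 cluster of 444 cells led by Ceacam16, Tcap and Fxyd3 had Cldn9 at 1419 and 962 CPM in replicates 1 and 2, above the named classes of those libraries, Cldn3 at 267 and 207 CPM and Cldn8 at 72.8 and 66.0 CPM. Ceacam16 encodes a protein of the tectorial membrane. A P28 cluster of 594 cells led by Fxyd2, Kcnk2 and Gjb2, the last a gap junction gene, had Cldn11 at 570 and 769 CPM. These groups were picked after their values were seen.

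Reissner's membrane held a pair of clusters at P28. The cluster of 199 cells had Cldn9 at 637 and 472 CPM, Cldn11 at 483 and 603 CPM and Cldn8 at 552 and 498 CPM, and the cluster of 616 cells had Cldn9 at 225 and 248 CPM, Cldn11 at 182 and 215 CPM and Cldn8 at 500 and 429 CPM. Cldn9, Cldn11 and Cldn8 were each higher in the smaller cluster in both replicates, but across replicates the Cldn8 ranges overlapped.

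Across 37 sums of a class in a library, on a log2(CPM + 10) scale, the members' levels correlated most for Cldn7 with Cldn9 (r = 0.897), Cldn3 with Cldn8 (0.870) and Cldn14 with Marveld2 (0.848), and least for Cldn11 with Cldn14 (-0.536). The sums share libraries and depth, so these are descriptions. Over the same sums, the genes most like each member were Pls1 for Cldn14 (r = 0.936), Plch2 for Marveld2 (0.945), Rab25 for Cldn9 (0.925), Epcam for Cldn7 (0.921), Prss8 for Cldn3 (0.943), Slco1a5 for Cldn4 (0.904), Krt8 for Cldn6 (0.874), Krt18 for Cldn8 (0.956), Emp1 for Cldn11 (0.887) and Slc16a11 for Cldn10 (0.677).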
